A study of Rattus norvegicus with 12 samples.

Results

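The interferon response and the antigen presentation machinery were followed as a set of 36 genes, chosen by name and read from 3 tables that together list 13546 genes. Of the 36, 34 were listed in at least 1 table, and 32 were listed in every table and could be followed through all 12 libraries. RNA had been sequenced from cells that grew out of explanted spinal tissue of Wistar rats and are labelled primary nucleus pulposus cells. The nucleus pulposus is the soft centre of an intervertebral disc. All cells carried a lentivirus, which held either the control vector (PLKO) or an shRNA that targets Nfat5 (shTon). The product of Nfat5 is TonEBP, a transcription factor with which cells adapt to high osmolarity. The 4 groups of 3 libraries were shTon cells kept for 24 h with TNF-a, an inflammatory cytokine, at 50 ng/mL (shTon_TNF), untreated shTon cells (shTon_CTR), PLKO cells given the same TNF-a (PLKO_TNF) and untreated PLKO cells (PLKO_CTR). Neither age nor sex of the animals is stated in the labels. The libraries of each group are numbered as sets 1 to 3. What a set stands for (a rat, a cell preparation or a date) is left unsaid in the labels. The p-values therefore reflect the spread between these samples alone, which may be technical.

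Type I interferons act through a receptor, the Jak kinases and a complex holding Stat2 and Irf9 that binds the interferon-stimulated response element (ISRE). Interferon-gamma acts through GAS elements, and it induces Irf1, which in turn acts on ISRE-like sequences. TNF-a works mainly through NF-kB, and Irf1, Cxcl10 and several antigen presentation genes are textbook targets of both routes. In the antigen presentation route, the immunoproteasome cuts proteins into peptides, the Tap transporter carries the peptides into the endoplasmic reticulum, and tapasin loads them onto MHC class I molecules. Class II molecules, with their invariant chain Cd74, are mostly made by professional antigen-presenting cells.

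Upstream sequences are shown for the 5 members whose level passed the test for TNF-a (Irf1, Gbp2, Gbp5, Psmb10 and Tapbp) and for the 3 members that were lower in every shTon library than in every PLKO library under TNF-a (Ifit3, Cxcl10 and Eif2ak2), as 6.89% of all genes tested there were. Each is the 250 bases before the gene's start, 5′ to 3′ on the gene's strand, from RefSeq on the rat build GRCr8, which is not the build the study named. Capitals mark matches, on either strand, to an ISRE (GAAA, 2 bases of any kind, GAAA), a GAS element (TTC, 3 bases of any kind, GAA) or an NF-kB (kB) motif. Some of the marks touch or overlap. The windows lie at chr10:38417685-38417934 (plus strand) for Irf1, chr2:234005477-234005726 (plus strand) for Gbp2, chr2:233910749-233910998 (plus strand) for Gbp5, chr19:50743293-50743542 (minus strand) for Psmb10 and chr20:4967878-4968127 (minus strand) for Tapbp. Those of the other 3 lie at chr1:241527076-241527325 (plus strand) for Ifit3, chr14:15988816-15989065 (plus strand) for Cxcl10 and chr6:21940904-21941153 (plus strand) for Eif2ak2.
Irf1: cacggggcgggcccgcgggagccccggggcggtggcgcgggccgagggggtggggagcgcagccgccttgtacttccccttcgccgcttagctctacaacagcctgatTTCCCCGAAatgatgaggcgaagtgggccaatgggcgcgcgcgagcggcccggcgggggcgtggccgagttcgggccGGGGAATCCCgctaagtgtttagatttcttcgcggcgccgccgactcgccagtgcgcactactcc
Gbp2: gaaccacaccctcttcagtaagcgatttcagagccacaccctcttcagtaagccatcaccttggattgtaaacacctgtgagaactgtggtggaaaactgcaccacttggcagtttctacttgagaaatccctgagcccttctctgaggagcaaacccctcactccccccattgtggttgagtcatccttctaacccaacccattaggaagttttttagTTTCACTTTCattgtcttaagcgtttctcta
Gbp5: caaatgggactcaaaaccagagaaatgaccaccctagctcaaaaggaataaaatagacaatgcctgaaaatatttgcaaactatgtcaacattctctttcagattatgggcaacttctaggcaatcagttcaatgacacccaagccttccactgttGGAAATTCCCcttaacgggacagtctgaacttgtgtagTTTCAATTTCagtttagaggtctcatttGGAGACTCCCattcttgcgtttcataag
Psmb10: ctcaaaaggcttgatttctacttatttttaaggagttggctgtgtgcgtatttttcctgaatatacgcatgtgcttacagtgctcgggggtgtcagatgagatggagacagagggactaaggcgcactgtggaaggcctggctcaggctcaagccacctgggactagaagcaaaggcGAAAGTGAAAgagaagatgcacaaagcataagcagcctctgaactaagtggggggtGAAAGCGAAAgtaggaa
Tapbp: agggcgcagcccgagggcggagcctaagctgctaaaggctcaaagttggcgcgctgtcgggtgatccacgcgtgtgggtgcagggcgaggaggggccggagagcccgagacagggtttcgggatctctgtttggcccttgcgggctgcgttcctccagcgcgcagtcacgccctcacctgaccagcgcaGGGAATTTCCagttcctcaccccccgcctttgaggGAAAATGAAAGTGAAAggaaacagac
Ifit3: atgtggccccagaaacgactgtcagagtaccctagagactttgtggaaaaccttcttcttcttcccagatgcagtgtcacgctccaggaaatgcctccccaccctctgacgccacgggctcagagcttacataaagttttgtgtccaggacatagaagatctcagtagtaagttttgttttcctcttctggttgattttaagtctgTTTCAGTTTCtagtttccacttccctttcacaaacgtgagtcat
Cxcl10: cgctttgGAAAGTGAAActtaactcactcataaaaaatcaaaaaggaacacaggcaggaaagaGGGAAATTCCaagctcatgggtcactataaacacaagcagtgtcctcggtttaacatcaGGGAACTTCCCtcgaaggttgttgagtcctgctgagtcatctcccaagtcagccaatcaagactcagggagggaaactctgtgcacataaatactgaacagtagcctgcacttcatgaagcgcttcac
Eif2ak2: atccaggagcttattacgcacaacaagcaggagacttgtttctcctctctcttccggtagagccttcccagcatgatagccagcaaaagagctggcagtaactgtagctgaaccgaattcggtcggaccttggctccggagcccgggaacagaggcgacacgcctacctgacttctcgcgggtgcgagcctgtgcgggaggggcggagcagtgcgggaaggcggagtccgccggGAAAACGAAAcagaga

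Irf1 has a GAS element and a kB motif in this window and no ISRE, while Gbp5 and Tapbp have both an ISRE and a kB motif. Gbp2, Psmb10, Ifit3 and Eif2ak2 have an ISRE and no kB motif, and Cxcl10 has 1 ISRE beside 3 kB matches, 2 of which overlap. Of the 36 members, 27 were matched by symbol to an upstream sequence, and 17 of the 27 hold an ISRE, against 3.29% of 27457 rat promoters of the same length. A kB motif is present in 8 of the 27 members and in 6.41% of all promoters, and a GAS element in 6 of the 27 and in 7.52%. TonE, the element that TonEBP binds, matched in 5 of the 27 members (Ifit3, Gbp2, Gbp5, Tapbp and Cd74) and in 5.16% of all promoters. The TonE matches of Gbp5 and Tapbp overlap their kB matches, and the GAS match of Bst2 overlaps its ISRE. A match describes letters in a window and is not a measured binding site. Ddx58, Isg15, Mx2, Ifit1, Ifit2, Usp18, Erap1, Nlrc5 and Ciita were not matched.

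The libraries held 7160042 to 18645538 reads on the listed genes. The levels given below are normalised reads, meaning reads divided by 1 size factor per library over the 12 libraries. They are not divided by gene length, so a level is compared between libraries and never between genes. Nfat5, the target of the shRNA, had 458, 457 and 288 normalised reads in sets 1 to 3 of shTon_CTR and 685, 1363 and 1818 in PLKO_CTR. With TNF-a it had 1695, 499.7 and 232 in shTon_TNF and 642, 1092 and 483 in PLKO_TNF. The library labelled shTon_TNF of set 1 therefore goes against its label. Some of the results that rest on it, though not all, are also given without set 1. Nfat5 was lower in 3 of 3 sets without TNF-a, with a log2 fold change of -1.61 ± 0.33 (SE). That change did not pass the main test over all genes (limma adjusted p = 0.0963). Without set 1, 2 or 3 the limma adjusted p was 0.0405, 0.211 or 0.00744, and DESeq2 gave an adjusted p of 4.89e-05. The authors' deposited adjusted p was 4.57e-05. Of 11 nucleus pulposus markers, Krt8, Cd24, Car3, Foxf1 and Pax1 were listed in all tables, Krt18 was listed in some, and Krt19, T, Acan, Col2a1 and Sox9 were not in the tables used here. Skeletal muscle markers summed to 39973 to 91131 normalised reads in the libraries of set 1, to 15432 to 28067 in set 2 and to 171 to 256 in set 3. Muscle transcripts were thus abundant in sets 1 and 2 of these cells labelled nucleus pulposus. Of 13 leukocyte markers, Cd68 and Cd14 were listed in all tables and Csf1r and Itgam in some. The pan-leukocyte marker Ptprc was not in the tables used here, and of 6 endothelial markers Tek alone was listed.

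TNF-a raised 5 of the 31 tested members in PLKO cells and lowered none. The tests are limma on log2(normalised reads + 1) with the set as a block, genes with a mean of at least 10, and a threshold of 0.05 on the p adjusted over all genes. Over all 12373 genes tested, 4.97% passed as higher and 4.65% as lower. The 5 members were the transcription factor Irf1, the interferon-induced guanylate-binding proteins Gbp2 and Gbp5, the immunoproteasome subunit Psmb10 and tapasin, Tapbp. The same 5 members, and no other, passed as higher in shTon cells, where 30 members were tested, none passed as lower, and 1.95% and 1.33% of all genes passed as higher and lower. Both comparisons use different libraries, so each is a separate measurement in the same 3 sets. Over all genes, 335 passed in both, which is 28.2% of the 1190 genes of PLKO cells and 82.7% of the 405 of shTon cells. The median log2 fold change for TNF-a was 0.35 over the members and -0.01 over all genes in shTon cells, and 0.27 and -0.01 in PLKO cells. Without the set as a block no member passed in either vector, and without a trend in the variance 2 passed in shTon and none in PLKO cells. Cd68 and Cd14 were the leukocyte markers listed in all tables. Their sums were 299.8 to 677 normalised reads in shTon_TNF and 252 to 524 in shTon_CTR. In PLKO_TNF the sums were 186 to 293, and in PLKO_CTR 277 to 346. In that order of groups, the means were 32.8, 31.3, 78.9 and 62.2 for Cd68. For Cd14 they were 436, 384, 172 and 246, so the markers differed between the vectors in opposite directions. The nucleus pulposus keratin Krt8 was lower with TNF-a, by a log2 fold change of -0.83 ± 0.15 in shTon cells (limma adjusted p = 0.0316) and -1.10 ± 0.20 in PLKO cells (adjusted p = 0.023). The muscle regulator Myod1 was lower too, by -1.21 ± 0.22 in shTon cells (limma adjusted p = 0.037) and -1.49 ± 0.20 in PLKO cells (adjusted p = 0.0112). The nucleus pulposus factor Pax1 was lower in PLKO cells (-1.45 ± 0.26, adjusted p = 0.0232) and missed the threshold in shTon cells (-0.87 ± 0.27, adjusted p = 0.144). The part of these markers in the results was not tested, and fewer cells of a type and less RNA per cell cannot be told apart in such bulk libraries.

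Irf1 had 1445, 1069 and 1559 normalised reads in sets 1 to 3 of shTon_TNF and 528, 479 and 967 in shTon_CTR. In PLKO cells it had 1169, 612 and 1450.5 in PLKO_TNF and 345, 291 and 669 in PLKO_CTR. Every treated library was higher than the untreated library of its own set. The groups overlapped in PLKO cells, where set 2 with TNF-a lay below set 3 without it, but not in shTon cells. Here and below, the share of all genes whose groups did not overlap for TNF-a was not counted. The log2 fold change, here and below from each pair's own table for PLKO cells and from the joint scale for shTon cells, was 1.10 ± 0.17 (SE, n = 3 per group) in shTon cells (limma adjusted p = 0.0192) and 1.31 ± 0.15 in PLKO cells (limma adjusted p = 0.00766).

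Gbp5 had 689, 779.6 and 1282 normalised reads in shTon_TNF and 169.6, 133 and 488 in shTon_CTR. In PLKO_TNF it had 516, 359.7 and 1172, against 213, 77.8 and 484 in PLKO_CTR. Set 3 was the highest in each group, and the groups were apart in shTon cells only. Its log2 fold change was 1.98 ± 0.22 in shTon cells (limma adjusted p = 0.00676) and 1.58 ± 0.20 in PLKO cells (limma adjusted p = 0.00915). Gbp2, its relative on the same chromosome, had 1419, 1594 and 4644 in shTon_TNF and 466, 486 and 1834 in shTon_CTR. In PLKO_TNF it had 958, 806 and 3096, against 492, 329 and 1596 in PLKO_CTR. Each treated library stood above its own set's untreated one, while set 3 was so high that the groups overlapped in both vectors. The log2 fold change of Gbp2 was 1.55 ± 0.13 in shTon cells (limma adjusted p = 0.00221) and 1.07 ± 0.11 in PLKO cells (limma adjusted p = 0.00473). Guanylate-binding proteins are a family of close relatives, and no source used here states how reads mapping to more than 1 place were counted, so their split is uncertain.

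Psmb10, a catalytic subunit that replaces a standard one when the immunoproteasome forms, had 606, 424 and 2345 normalised reads in shTon_TNF and 266, 200.3 and 675 in shTon_CTR. It had 495, 271 and 1562 in PLKO_TNF and 290.1, 215 and 639.8 in PLKO_CTR. It was higher with TNF-a in 3 of 3 sets in both vectors, and the groups overlapped because set 3 was high throughout. Its log2 fold change was 1.35 ± 0.17 in shTon cells (limma adjusted p = 0.0101) and 0.80 ± 0.18 in PLKO cells (limma adjusted p = 0.0413), where leaving out set 1 or set 3 ended the call (adjusted p of 0.0844 or 0.0765). Tapbp, the chaperone that holds class I molecules at the Tap transporter, had 1239.8, 1451 and 2721 in shTon_TNF and 488, 699 and 1441 in shTon_CTR. It had 1058, 949.9 and 2002 in PLKO_TNF, against 571, 717 and 1085 in PLKO_CTR. These groups overlapped too, with each treated library above the untreated one of its set. The log2 fold change of Tapbp was 1.10 ± 0.13 in shTon cells (limma adjusted p = 0.00897) and 0.73 ± 0.13 in PLKO cells (limma adjusted p = 0.0212).

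**Figure D1:**
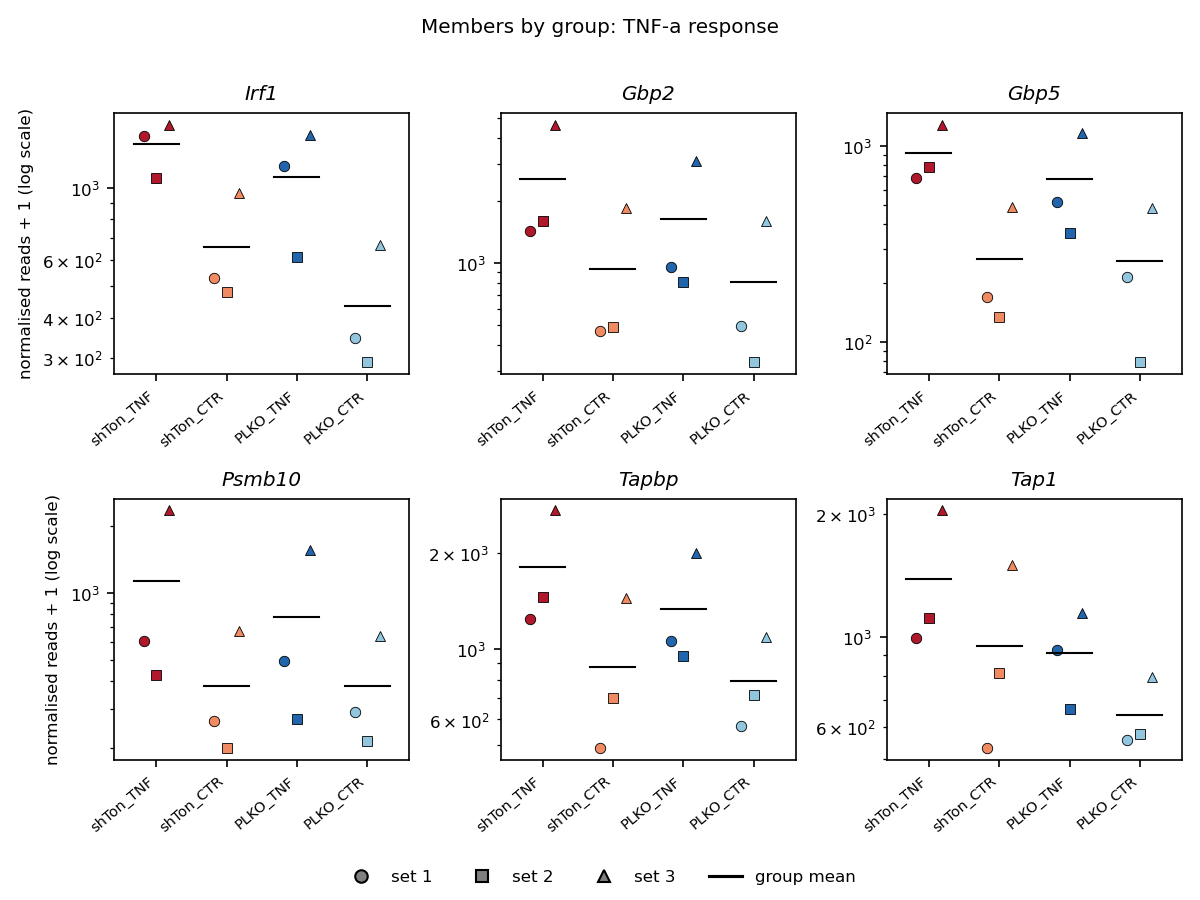
Normalised reads plus 1 (log axis) of the 5 members that passed the test for TNF-a, and of Tap1, in each of the 12 libraries; columns are the 4 groups, symbols are sets 1 to 3 and bars are group means. In each panel the treated library lies above the untreated library of its own set and vector, and set 3 is the highest of its group.

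The antigen presentation members mostly had higher values with TNF-a. All 12 tested of 13 had a positive log2 fold change in both vectors, with a median of 0.63 in shTon cells and 0.43 in PLKO cells, and the signs were the same without set 1. Over all genes, 49.0% and 48.3% were positive in shTon and PLKO cells. Of these 12 members, 2 passed the test in each vector, Psmb10 and Tapbp. Higher in 3 of 3 sets were 9 of them in shTon cells and 5 in PLKO cells; over all genes, 19.9% and 25.3% were higher in 3 of 3 sets, and 22.6% and 26.6% were lower.

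Among the members that missed the threshold, Tap1, a subunit of the peptide transporter, had 993, 1108 and 2035 normalised reads in shTon_TNF and 533, 812 and 1495 in shTon_CTR. It had 925, 663 and 1139.8 in PLKO_TNF and 557, 576 and 795 in PLKO_CTR. Each treated library was above the untreated one of its set and the groups overlapped, with log2 fold changes of 0.60 ± 0.14 (limma adjusted p = 0.075) in shTon cells and 0.48 ± 0.13 (adjusted p = 0.0568) in PLKO cells. The other immunoproteasome genes had log2 fold changes in shTon cells of 0.65 for Psmb8, 0.81 for Psmb9, 0.55 for Psme1 and 0.81 for Psme2, and none passed. In PLKO cells the same genes had 0.03, 0.30, 0.27 and 0.45 in that order. Psmb8 and Psmb9 are catalytic subunits, and Psme1 and Psme2 form the proteasome activator. Psme1 had 1242, 1314 and 3443 normalised reads in shTon_TNF and 989, 1009 and 1801 in shTon_CTR. It had 1303, 899.7 and 2365 in PLKO_TNF and 979, 1034 and 1573 in PLKO_CTR. Set 3 was the highest of each group, and the groups overlapped in both vectors. B2m, the light chain of class I molecules, had 4810.0, 7242 and 10785 normalised reads in shTon_TNF and 4809, 7326 and 7299.5 in shTon_CTR, and 6473, 7767 and 6845 in PLKO_TNF and 5768, 8244 and 5688 in PLKO_CTR. Its groups overlapped in both vectors, and its log2 fold change had a 95% interval of -0.20 to 0.56 in shTon cells and -0.17 to 0.40 in PLKO cells, and Erap1, which trims peptides, had -0.17 to 0.42 and -0.15 to 0.42. Of Nlrc5 and Ciita, the transactivators of class I and class II genes, Ciita had 48.0, 34.4 and 1.51 in shTon_TNF and 28.3, 27.6 and 0 in shTon_CTR, and 39.5, 50.2 and 10.1 in PLKO_TNF and 28.9, 34.8 and 8.32 in PLKO_CTR. It was low or at 0 in set 3 of every group and did not pass in either vector (limma adjusted p = 0.32 and 0.35).

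The antiviral programme, 23 members of which 18 were tested in shTon and 19 in PLKO cells, was mixed. In shTon cells 11 log2 fold changes were positive and 7 negative, and in PLKO cells 13 and 6, with Irf1, Gbp2 and Gbp5 the ones that passed in both. Ddx58, the RNA sensor also called RIG-I, had 85.4, 55.0 and 83.3 normalised reads in shTon_TNF and 61.2, 68.4 and 129 in shTon_CTR. It had 88.9, 52.3 and 101 in PLKO_TNF, below each of 104, 108 and 252 in PLKO_CTR. The PLKO groups thus did not overlap, and how many of all genes were alike in this was not counted. Its log2 fold change in PLKO cells was -0.86 ± 0.23 (limma adjusted p = 0.0651), and in shTon cells -0.15 ± 0.26 (adjusted p = 0.795). For TNF-a in PLKO cells, 7 members had an adjusted p under 0.05 in the authors' deposited table, against 11.8% of all genes with a p: the 5 named above and Tap1 as higher, and Ddx58 as lower. Without set 1, Ddx58 and Irf9 passed as lower in PLKO cells (limma adjusted p = 0.0258 and 0.0333), against 5.61% of all genes. Ifih1, the other RNA sensor, had 432, 353 and 639 in shTon_TNF and 365, 339 and 666 in shTon_CTR, and 668, 326 and 549 in PLKO_TNF and 556, 251 and 538 in PLKO_CTR. Its groups overlapped in both vectors. Irf9, part of the complex that carries type I interferon signals, had log2 fold changes of -0.63 and -0.52, and Ifit2, an RNA-binding antiviral protein, -0.73 and -0.71, in shTon and PLKO cells, and neither passed (limma adjusted p 0.0967 and 0.134, 0.0518 and 0.202).

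Cxcl11, a ligand of the receptor Cxcr3, had 23.5, 25.5 and 12.1 normalised reads in shTon_TNF and 10.4, 2.40 and 0 in shTon_CTR. It had 79.0, 24.5 and 43.1 in PLKO_TNF and 70.3, 0 and 11.4 in PLKO_CTR. Levels were higher with TNF-a in 3 of 3 sets in both vectors, and the shTon groups did not overlap. The log2 fold changes of 2.59 ± 0.58 (limma adjusted p = 0.0637) in shTon cells and 2.29 ± 0.79 (adjusted p = 0.111) in PLKO cells did not pass, and they rest on few reads. Without set 1, 14 of 29 tested members passed for TNF-a in shTon cells, against 9.05% of all genes: the 5 members with Cxcl11, Cxcl10, Isg15, Psmb8, Psmb9, Psme1, Psme2, and, lower, Ifit2 and Irf9.

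**Figure D2:**
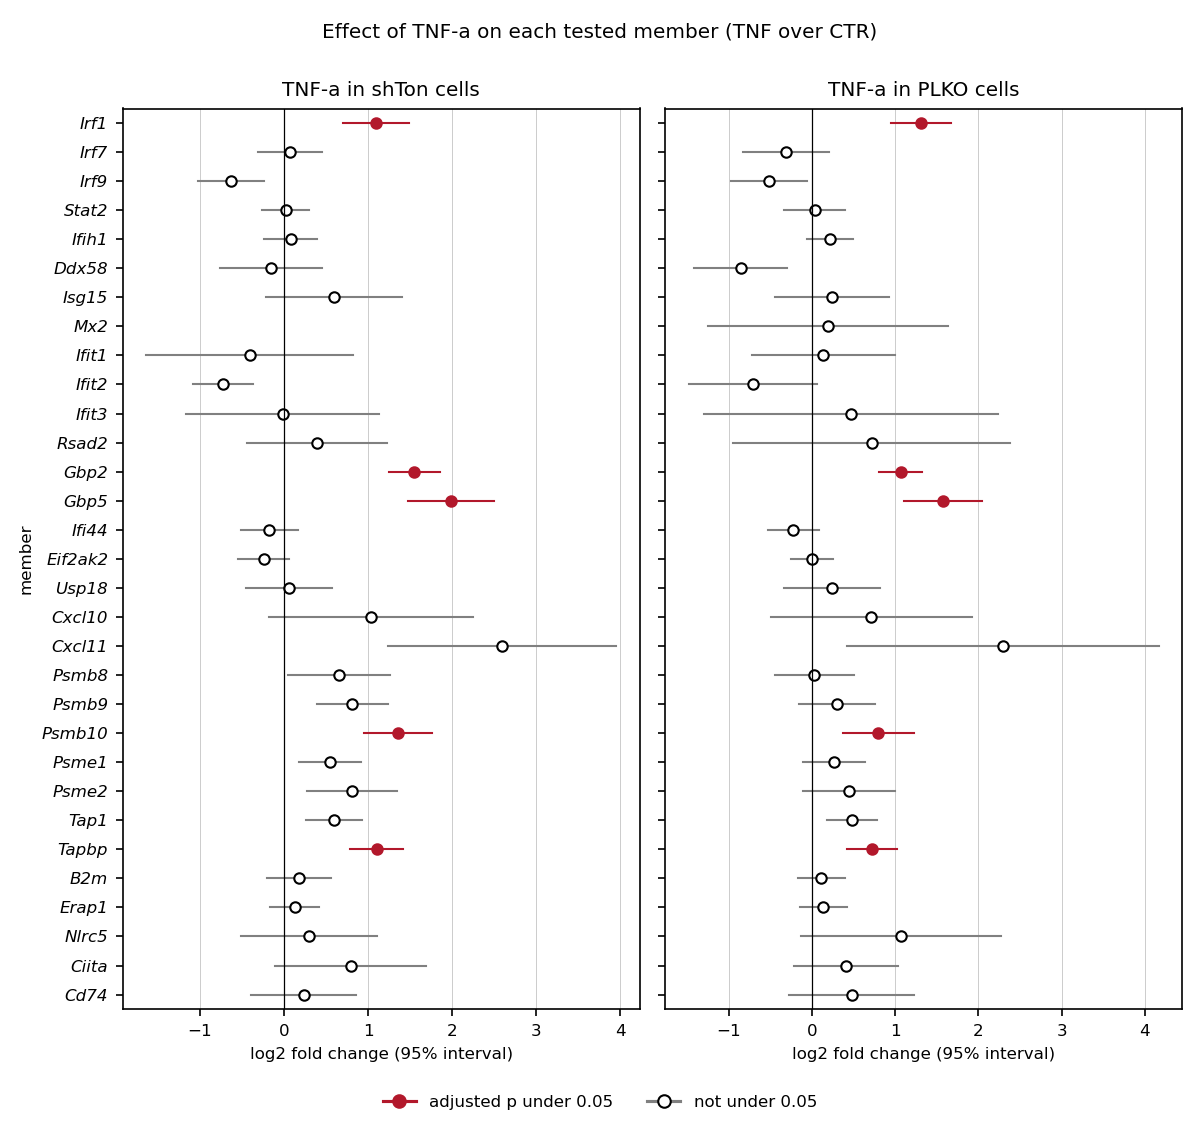
Log2 fold change (TNF-a over untreated) of each tested member in cells labelled shTon (left) and in PLKO cells (right), with 95% intervals from limma; filled red points passed at an adjusted p under 0.05 and open points did not. Irf1, Gbp2, Gbp5, Psmb10 and Tapbp are red on both sides, and all 12 antigen presentation genes lie to the right of 0.

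The comparison of shTon with PLKO cells gives differences between the vectors, and whether they come through TonEBP was not tested. With TNF-a this comparison includes the library labelled shTon_TNF of set 1, in which Nfat5 was not lower. The log2 fold change of Nfat5 under TNF-a was -0.26 ± 0.44 (limma adjusted p = 0.799). Under TNF-a no member passed the test among 31 (smallest limma adjusted p 0.0686; edgeR 0 members), where 0.254% of all genes passed. At an unadjusted p under 0.05 there were 13 of the 31 members and 17.0% of all genes. DESeq2 passed 3 (Ifit3, Cxcl10 and Gbp2), against 2.97% of all genes, and limma over all 12 libraries passed 2 (Gbp2 and Eif2ak2), against 3.61%. Without set 1, limma passed 4 of 29 members, Ifit3, Cxcl10, Tap1 and Irf7, against 4.04% of all genes. The authors' deposited table gives an adjusted p under 0.05 for 4 members, against 3.31% of all genes with a p: Ifit3, Cxcl10 and Ifit1 lower and Gbp2 higher. The median log2 fold change was -0.00 over the members and 0.02 over all genes.

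Ifit3, an antiviral protein of the Ifit family, had 48.0, 37.3 and 25.7 normalised reads in shTon_TNF and 473, 165 and 68.5 in PLKO_TNF. Each of the 3 shTon_TNF libraries lay below each of the 3 PLKO_TNF libraries. The log2 ratios in sets 1 to 3 were -3.26, -2.11 and -1.38, and the log2 fold change was -2.25 ± 0.36 (limma adjusted p = 0.0686). It passed when any 1 set was left out (limma adjusted p = 0.0114 without set 1, 0.00523 without set 2 and 0.0261 without set 3). Those fits rest on fewer libraries, so a smaller adjusted p in them does not show a firmer result. With all 12 libraries in the fit Ifit3 did not pass (limma adjusted p = 0.128). It missed the threshold by edgeR (adjusted p = 0.0586) and passed by DESeq2 (1.19e-06). Without TNF-a it had 149, 21.6 and 14.3 in shTon_CTR and 779, 17.4 and 145 in PLKO_CTR, with the groups overlapping, since set 2 of PLKO_CTR was low (log2 fold change -1.78 ± 0.59, limma adjusted p = 0.2).

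Cxcl10, the best known Cxcr3 ligand, had 366, 358 and 83.3 normalised reads in shTon_TNF and 1637, 569.9 and 413 in PLKO_TNF. The groups did not overlap, and the ratios in sets 1 to 3 were -2.15, -0.66 and -2.30 on the log2 scale. The log2 fold change was -1.70 ± 0.31 (limma adjusted p = 0.0775), with an adjusted p of 0.00908 without set 1, 0.000571 without set 2 and 0.116 without set 3. As for Ifit3, those fits rest on fewer libraries and do not show a firmer result. With all 12 libraries in the fit Cxcl10 did not pass (limma adjusted p = 0.183). It missed the threshold by edgeR (adjusted p = 0.0789) and passed by DESeq2 (1.87e-05). Without TNF-a it had 558, 58.8 and 37.7 in shTon_CTR and 2322, 96.7 and 385 in PLKO_CTR. It was lower in the shTon library of each set, with overlapping groups (log2 fold change -2.03 ± 0.42, limma adjusted p = 0.0944). Cxcl11 had log2 fold changes of -1.13 ± 0.43 with TNF-a and -1.52 ± 1.02 without it, and neither passed (limma adjusted p = 0.245 and 0.481).

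Eif2ak2, the kinase PKR that is switched on by double-stranded RNA, had 556, 545 and 575 normalised reads in shTon_TNF and 974, 781 and 959.8 in PLKO_TNF. Without TNF-a it had 705, 586 and 699 in shTon_CTR and 861, 778 and 1091 in PLKO_CTR. All 6 shTon libraries were thus below all 6 PLKO libraries. With TNF-a alone, 6.89% of all genes tested were lower in every shTon library. The share of all genes that were so over both conditions was not counted. The log2 fold change was -0.68 ± 0.16 with TNF-a (limma adjusted p = 0.111) and -0.45 ± 0.13 without it (adjusted p = 0.153). With all 12 libraries in the fit the first had a limma adjusted p of 0.0206. The change with TNF-a did not pass by DESeq2 (adjusted p = 0.059) or edgeR (0.115). Nor did it pass by limma without set 1, 2 or 3 (adjusted p of 0.128, 0.282 and 0.142). Its level did not pass the test of a difference among the sets (limma adjusted p = 0.1).

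Isg15, a ubiquitin-like protein that is joined to other proteins during the interferon response, had 65.0, 9.60 and 128 normalised reads in shTon_CTR and 185, 18.9 and 235 in PLKO_CTR. With TNF-a it had 50.1, 26.5 and 219.5 in shTon_TNF and 139.5, 41.6 and 239.6 in PLKO_TNF. It was lower in the shTon library of each set in both conditions, and the groups overlapped, since set 2 was low in every group. The log2 fold change was -0.73 ± 0.30 with TNF-a and -1.10 ± 0.23 without it (limma adjusted p = 0.268 and 0.0988). Leaving out set 1, the change with TNF-a was -0.38 (limma adjusted p = 0.616). Usp18, which removes Isg15 from proteins and damps the interferon receptor, had 109.9, 146 and 169.6 in shTon_TNF and 332, 179 and 153 in PLKO_TNF. Without TNF-a it had 155, 116 and 134 in shTon_CTR and 329.6, 89.2 and 185 in PLKO_CTR, and its groups overlapped in both conditions. Ifit1, a relative of Ifit3, had 24.5, 1.96 and 0 in shTon_TNF and 164, 8.54 and 0 in PLKO_TNF, and it was at 0 in set 3 of all 4 groups. The Ifit genes are near relatives, so the split of reads between them is uncertain.

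**Figure D3:**
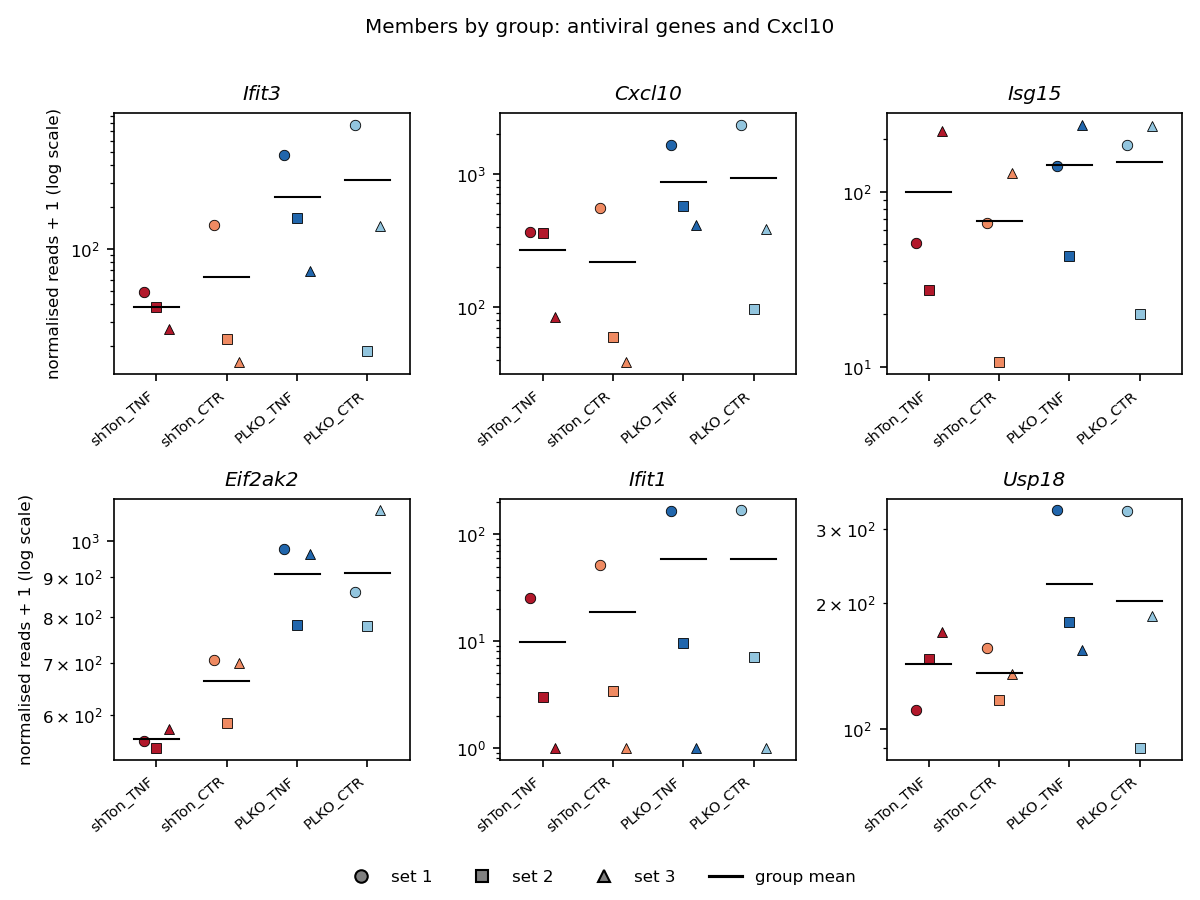
Normalised reads plus 1 (log axis) of Ifit3, Cxcl10, Isg15, Eif2ak2, Ifit1 and Usp18 in each of the 12 libraries; columns are the 4 groups, symbols are sets 1 to 3 and bars are group means. With TNF-a the 3 shTon libraries of Ifit3, Cxcl10 and Eif2ak2 lie below the 3 PLKO libraries, as for 6.89% of all genes tested, while Ifit1 is at 0 in set 3 of every group.

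The antigen presentation genes mostly had higher values in shTon than in PLKO cells under TNF-a, and none passed the test. Of the 12 tested, 9 had a positive log2 fold change and 3 a negative one, with a median of 0.30, and 6 were higher in 3 of 3 sets, against 20.5% of all genes. Without set 1 the count was 10 and 2. The values were 0.85 ± 0.27 for Psme2, 0.56 ± 0.19 for Tap1, 0.54 ± 0.29 for Psmb8, 0.51 ± 0.16 for Psmb10 and 0.43 ± 0.16 for Tapbp. Without TNF-a, 7 of the 12 were positive and 5 negative, with a median of 0.05, and 9 and 3 without set 1. The antiviral programme had 6 positive and 13 negative log2 fold changes under TNF-a, a median of -0.09, and 5 members lower in 3 of 3 sets, against 19.8% of all genes. Without set 1 the antiviral programme had 9 positive and 8 negative values, with a median of 0.02. Those counts cover 17 members against 19 with all sets, so they are not like for like. Ifit1 (-1.45) and Mx2 (-1.44), negative with all sets, fell under the filter without set 1. Ifit3 (-1.75) and Cxcl10 (-1.48) stayed negative there. The difference between the programmes was not tested.

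Gbp2 was the member with the smallest adjusted p among those that were higher in shTon than in PLKO cells under TNF-a. It had 1419, 1594 and 4644 normalised reads in shTon_TNF and 958, 806 and 3096 in PLKO_TNF. The shTon library was higher in each set and the groups overlapped, with a log2 fold change of 0.72 ± 0.16 (limma adjusted p = 0.111) and ratios of 0.58, 0.99 and 0.58 in sets 1 to 3. Leaving out set 1, the change of Gbp2 with TNF-a was 0.78 (limma adjusted p = 0.0577). Without TNF-a its log2 fold change was 0.22 ± 0.15 (adjusted p = 0.484). Irf1 had 528, 479 and 967 in shTon_CTR and 345, 291 and 669 in PLKO_CTR. It was higher in the shTon library of each set, with overlapping groups and log2 fold changes of 0.41 ± 0.18 with TNF-a and 0.62 ± 0.12 without it (limma adjusted p = 0.303 and 0.0933).

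Without TNF-a no member passed among 31 (smallest limma adjusted p 0.0933; edgeR 0 members), where 0.113% of all genes passed. An unadjusted p under 0.05 was found for 7 of the 31 members and for 17.0% of all genes. DESeq2 passed Isg15, lower, and Irf1, higher, against 3.32% of all genes. The authors' deposited table also has Isg15, lower, and Irf1, higher, under 0.05, against 3.59% of all genes with a p. Without set 2 limma passed Cxcl10 and Ifit3 as lower, against 0.0971% of all genes, and without set 3 Cxcl10, against 1.09%. Higher in 3 of 3 sets were 5 members and lower 6, against 20.6% and 20.2% of all genes. Ddx58 had 61.2, 68.4 and 129 normalised reads in shTon_CTR and 104, 108 and 252 in PLKO_CTR. It was lower in each set with a log2 fold change of -0.80 ± 0.18 (limma adjusted p = 0.114). With TNF-a its fold change between the vectors was -0.09 ± 0.24.

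**Figure D4:**
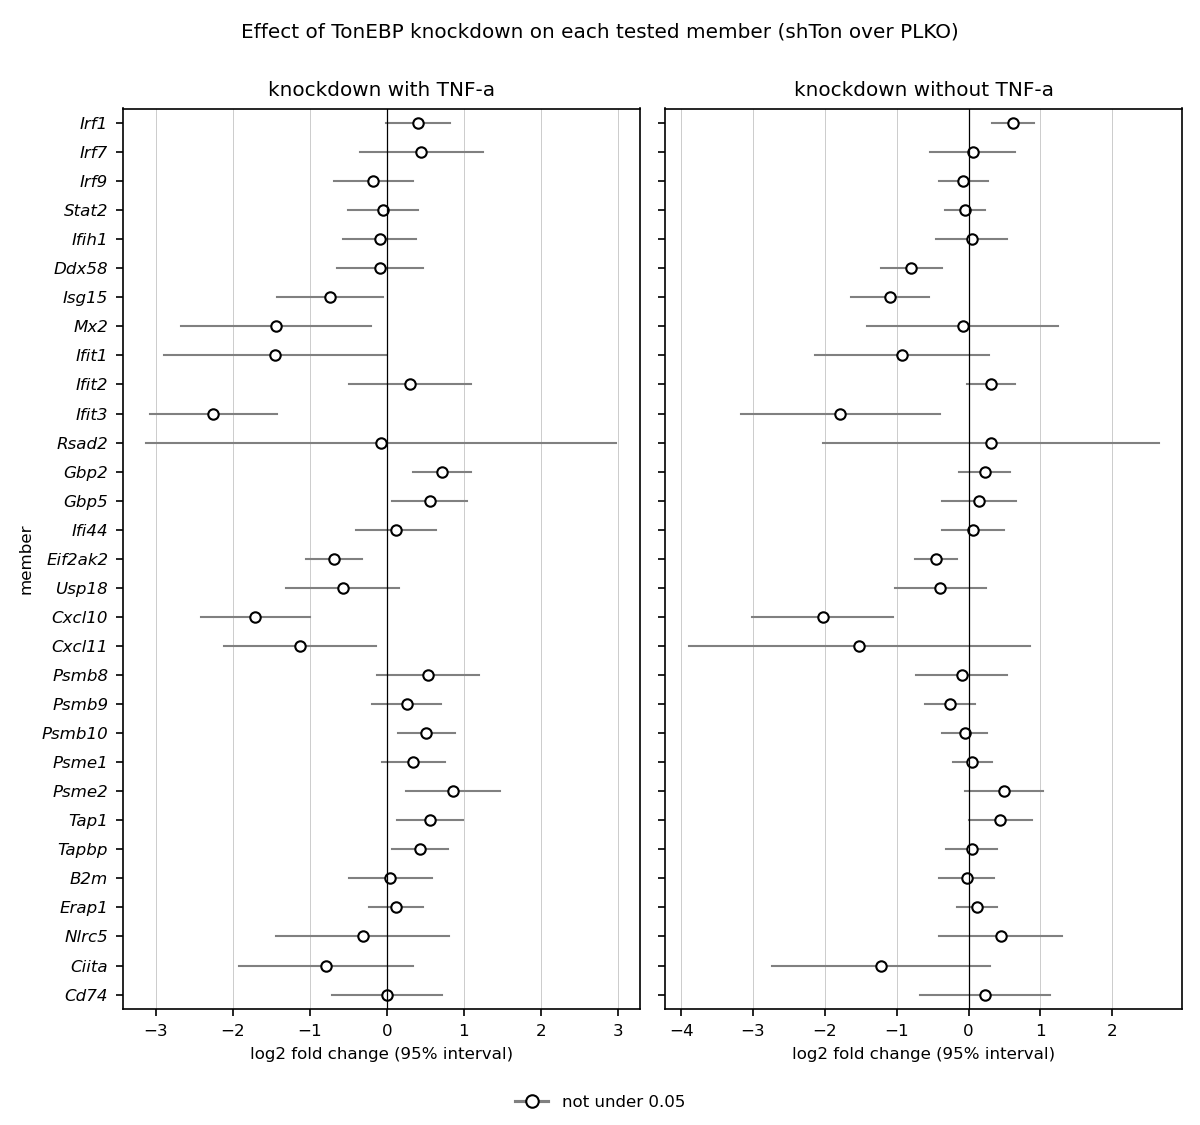
Log2 fold change (shTon over PLKO) of each tested member with TNF-a (left) and without it (right), with 95% intervals from limma; all points are open because none passed at an adjusted p under 0.05. Ifit3, Cxcl10, Eif2ak2 and Isg15 lie left of 0 on both sides with intervals that leave out 0, and Tap1 lies right of 0 in the same way. The broadest interval is that of Rsad2 with TNF-a and of Cxcl11 without it.

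Whether the response to TNF-a differed between the vectors was tested by the interaction over all 12 libraries. No member passed among 31, as no gene did (0.0% of all genes, with 0 by edgeR and DESeq2 too, and 1 member beside 1.78% of all genes at an unadjusted p under 0.05). That member was Gbp2, with an interaction of 0.48 ± 0.21 on the log2 scale (limma adjusted p = 0.999). The interactions of the other members that answered TNF-a had 95% intervals of -0.50 to 1.30 for Gbp5, -0.04 to 1.15 for Psmb10, -0.09 to 0.85 for Tapbp and -0.80 to 0.37 for Irf1. A p above the threshold does not show that the responses were alike.

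Many members differed among the sets. Of the 31 members tested, 23 differed among the sets with the group in the model (limma F test, adjusted p under 0.05), against 45.4% of all genes. The highest set was set 3 for 17 of the 23, set 1 for 5 and set 2 for 1. How all genes that differed among the sets split in this way was not counted. The antigen presentation genes were mostly highest in set 3, and so were antiviral members such as Gbp2, Gbp5, Irf1 and Ifi44. The antiviral members Cxcl10, Ifit1, Ifit3 and Mx2 were highest in set 1. The means over the 4 groups (± SD, n = 4 libraries) of Psmb10 were 414 ± 164 in set 1, 278 ± 102 in set 2 and 1306 ± 814 in set 3. For the antiviral member Gbp2 they were 834 ± 451, 804 ± 563 and 2792 ± 1399. Cd74, the invariant chain of class II molecules, ran the other way, with 259, 56.0 and 6.06 normalised reads in sets 1 to 3 of shTon_TNF, 188, 68.4 and 3.90 in shTon_CTR, 269.8, 80.0 and 3.80 in PLKO_TNF and 294, 66.5 and 1.04 in PLKO_CTR. Every library of set 1 was above every library of set 2, and all of set 2 above all of set 3 (limma adjusted p = 8.69e-07). The summed skeletal muscle markers given above ranked the sets in the same way, and their part in these differences was not tested. Leukocyte markers, here Cd68 and Cd14 as the ones listed in all tables, summed to 252 to 300 in set 1. The sums were 274 to 677 in set 2 and 186 to 471 in set 3. These markers ranked the sets differently. For Cd68, sets 1 to 3 had 68.3, 19.6 and 10.6 in shTon_TNF and 65.9, 7.20 and 20.8 in shTon_CTR. In PLKO_TNF it had 149, 27.7 and 59.6, and in PLKO_CTR 129, 18.9 and 38.5. Cd14 had 232, 658 and 419 in shTon_TNF and 186, 517 and 450 in shTon_CTR. Its PLKO values were 144, 247 and 127 with TNF-a and 148, 327 and 262 without it. The part of either marker was not tested.

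**Figure D5:**
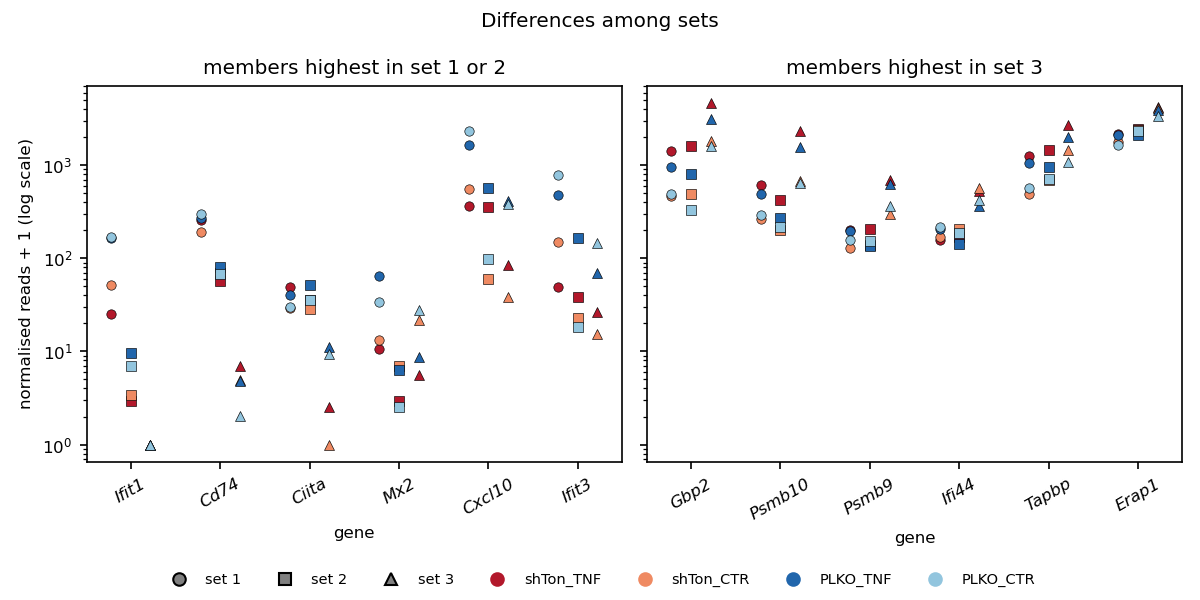
Normalised reads plus 1 (log axis) of 12 members in every library, drawn by set (symbol) and group (colour); the left panel holds members that are highest in set 1 or 2, the right panel members that are highest in set 3. Ifit1 is at 0 in set 3 and Cd74 is lowest there, while the 6 genes on the right have their highest mean in set 3.

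Of the remaining members, Irf7, Stat2, Ifi44, Mx2 and Rsad2 were tested and did not pass in any comparison of the main fit. Without set 1, Irf7 passed as higher in shTon than in PLKO cells under TNF-a (1.04, limma adjusted p = 0.0287), against 4.04% of all genes. Without set 3, Rsad2 passed as higher with TNF-a in PLKO cells (1.65, limma adjusted p = 0.0249), where 968 of 12333 genes passed. Irf7, which amplifies type I interferon production, had 87.5 to 525 normalised reads over the 12 libraries, and Stat2, a partner of Irf9, had 593 to 1241. Ifi44, an interferon-induced protein, had 143 to 569, and Mx2, an antiviral GTPase, had 1.51 to 63.6 and fell under the filter of a mean of 10 for TNF-a in shTon cells. Rsad2, the antiviral enzyme viperin, had 0 to 215. Nlrc5 had 8.54 to 49.4, at few reads. Bst2, the virus-tethering protein tetherin, had 0 to 28.8 and was at 0 in set 2 of every group, and like Mx1 and Oas1a it was under the filter. Mx1 and Oas1a were listed in 2 of the 3 tables, and Cxcl9 and Tap2 were in none of those used here.

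In other genes of the pathway few passed, and their counts stand beside the shares of all genes given above for each vector. Among the receptor and JAK-STAT genes, Ifngr2, a chain of the interferon-gamma receptor, was higher with TNF-a in PLKO cells (log2 fold change 0.50 ± 0.11, limma adjusted p = 0.0404) and missed the threshold in shTon cells (0.52 ± 0.12, 0.0758). Irf5, 1 of 7 other tested Irf-family genes, was higher in both (0.87 ± 0.17 in shTon cells, adjusted p = 0.0453; 0.91 ± 0.13 in PLKO cells, 0.013). Of 12 interferon genes asked for, Ifne alone was listed, and it was tested for TNF-a in PLKO cells only, where it did not pass (adjusted p = 0.295).

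Among sensors and adaptors, 9 were tested in PLKO cells and 10 in shTon cells. The kinase Ikbke passed as higher in PLKO cells (0.54 ± 0.12, limma adjusted p = 0.0413) and missed the threshold in shTon cells (0.65 ± 0.14, 0.0535). Of 45 other interferon-stimulated genes, Parp14 and Wars passed in PLKO cells (0.64 and 0.50) and Oasl2 in shTon cells (0.91), against the 4.97% and 1.95% of all genes that passed as higher in PLKO and shTon cells. In shTon cells Parp14 and Wars had 0.69 and 0.21 (limma adjusted p = 0.0584 and 0.384). In PLKO cells Oasl2 had 0.002 (limma adjusted p = 0.995). Of 11 negative regulators, Nlrx1 was higher in both vectors (0.89 in shTon, 1.01 in PLKO cells) and the phosphatase Ptpn6 lower in PLKO cells (-1.09). Ptpn6 missed the threshold in shTon cells (-0.91, limma adjusted p = 0.0642). None of 25 or 26 tested genes of the class I list and none of 9 of the class II and costimulation list passed for TNF-a in either vector, and no gene of any of these lists passed for the knockdown or the interaction. RT1-A1 and RT1-A2, rat class I genes that are near copies of each other, had log2 fold changes for TNF-a of 0.17 and 0.25 in shTon cells and 0.09 and -0.00 in PLKO cells.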

How the data were processed

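The authors deposited 3 tables, each of 2 groups of 3 libraries, with normalised values per gene (signal), their log2 fold change and their adjusted p-value. The submitters' processing notes name Novoalign 2.08.01, the build rn5 and DESeq2. No source used here gives the read counter, the annotation, the strandedness or the handling of reads with more than 1 match, so near-identical and overlapping genes are uncertain. Dividing each deposited value by the step of its library gave whole reads for 100.0% of values (tolerance 0.001). The 3 deposited pairs were fitted on their own tables. TNF-a in shTon cells and the interaction used the recovered reads of 12899 genes common to the tables, scaled jointly by size factors.

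Tests were limma 3.58.1 in R 4.3.3 on log2(value + 1), genes with a mean of at least 10, a mean-variance trend, the set as a block and Benjamini-Hochberg adjustment over all genes tested. Libraries of the same set deviated together from their group means (r of 0.61 to 0.89 over 18 pairs, against -0.74 to 0.18 over 36 pairs of different sets), so the numbers pair the samples; the labels do not say what a set is. Libraries within a group differed by more than counting noise. Alternatives were edgeR 4.0.16 and DESeq2 1.42.0 on the recovered reads, TMM scaling, other filters and pseudocounts, no trend, no block, all 12 libraries in the fit and each set left out. Fits with a set left out estimate the spread from fewer libraries. A call gained in them therefore does not show that a result is robust. The values of 1 gene of the pathway lists are not reported here. The members, gene lists and tests were chosen with earlier results of these data known. All 36 members are accounted for; values per library are given for those that passed and for the most abundant tested member of each role, and for others chosen after their values were seen.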

Additional observations from a re-analysis of the deposited data

Results flagged for a closer look

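Psmb9, a catalytic subunit of the immunoproteasome, was the member for which the difference between shTon and PLKO cells had one sign with TNF-a in all sets and the other sign without it. With TNF-a it had 199.5, 204 and 693 normalised reads in sets 1 to 3 of shTon_TNF and 196, 136 and 625 in PLKO_TNF, and the log2 ratios of the sets were 0.04, 0.59 and 0.15. Without TNF-a it had 128, 137 and 295 in shTon_CTR and 156, 154 and 366 in PLKO_CTR, with log2 ratios of -0.29, -0.18 and -0.31. The interaction over 12 libraries was 0.5103 on the log2 scale and did not pass (limma adjusted p = 0.999). Leaving out set 1, the interaction was 0.61 and did not pass either. The shTon_TNF value of set 1 comes from the library whose Nfat5 level goes against its label.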

How the results depend on the processing

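The members called for TNF-a in PLKO cells, 5, became 0 without the replicate block and 0 without a variance trend, and were 5 to 7 when a set was left out. For TNF-a in shTon cells the 5 became 0 without the replicate block, 2 without a trend, 8 with DESeq2 and 5 to 14 when a set was left out, the 14 without set 1. The 0 members of the knockdown without TNF-a became 2 with DESeq2 and 0 to 2 when a set was left out. The 0 of the knockdown with TNF-a became 3 with DESeq2, 2 with all 12 libraries in the fit and 1 to 4 when a set was left out. The interaction stayed at 0 members under every alternative run, and no value called in the main fit changed sign. Ifit3, not called for TNF-a in PLKO cells in the main fit (0.47, limma adjusted p = 0.717), passed as lower without set 2 (-0.89, limma adjusted p = 0.0347). Of the single member values with an unadjusted p under 0.05 and their alternatives, 457 kept their side of the threshold, 30 gained a call and 21 lost one. Psmb10 in PLKO cells also lost its call at a pseudocount of 0.1 (limma adjusted p = 0.0503). Counting over all genes, TNF-a in PLKO cells called 1190, against 0 without the block, 55 without a trend, 696 with all 12 libraries and 545 without set 2. TNF-a in shTon cells called 405, against 6 without the block, 143 without a trend, 627 with DESeq2 and 1105 without set 1. The knockdown without TNF-a called 14, against 0 without the block, 0 without a trend, 2 at a pseudocount of 0.1, 3 with all 12 libraries, 411 with DESeq2, 283 without set 1 and 220 without set 3. The knockdown with TNF-a called 31, against 0 without the block, 0 without a trend, 12 at a pseudocount of 0.1, 363 with DESeq2, 444 with all 12 libraries, 488 without set 1 and 157 without set 2. The cause of these changes was not tested. The signs counted without set 1 were added after seeing the data. Members with few reads, such as Rsad2, Mx2, Ciita and Cxcl11, have broad intervals at this depth.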
